A study of Rattus norvegicus with 10 samples.

Results

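Mfge8 was described here across the 10 hippocampi of the series, as 1 gene of the 16643 in the deposited table, where it is listed under the Ensembl identifier ENSRNOG00000017510. It was chosen from results on the difference between the rat lines, since the study's paper names it as a candidate gene, and so its level by line is given as a description with no test. The name Mfge8 was assigned to this identifier beforehand and was not checked here, because neither the deposited table nor the RefSeq table (GRCr8) pairs Ensembl identifiers with symbols. Its genome position, its protein sequence and the marker genes of hippocampal cell types were not analysed here.

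Polyadenylated RNA of the whole hippocampus was sequenced from 5 adult male bred High Responder (bHR) rats and 5 adult male bred Low Responder (bLR) rats, lines selected over generations for high or low locomotor response to an unfamiliar place. All 10 were vehicle controls of generation 43, injected daily for 14 days (saline and water in equal parts), kept in standard housing and 92 days old. Each spent 15 minutes on the elevated plus maze, a raised track with open and walled arms that rats find aversive, then had a social interaction test, and was killed 1 hour after the maze. The groups are selectively bred lines, so they differ at many loci, and no group lacked the injections, the maze or the social test.

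Mfge8 encodes MFG-E8, a secreted glycoprotein also called lactadherin. Its discoidin-like domains bind phosphatidylserine on the surface of dying cells and membrane fragments, and an integrin-binding motif in its EGF-like part docks to vitronectin receptors on phagocytes, so that the protein bridges the target to the cell that engulfs it. In rodent brain the transcript is known chiefly from astrocytes and from cells of vessel walls, and microglia are among the cells that engulf targets coated with the protein.

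The bHR rats had log2 values (log2 RPM of the deposited table, reads scaled to a common library size) of 6.94, 6.98, 6.99, 6.90 and 7.30 in replicates 1 to 5. The bLR rats had log2 values of 6.94, 6.61, 6.72, 6.92 and 6.71. In bHR 4 rats lay close together and replicate 5 stood above them, while in bLR replicates 1 and 4 reached the bHR range and replicates 2, 3 and 5 lay below every bHR rat. The lines therefore overlapped, with 2 bHR rats (replicates 1 and 4) below the highest bLR rat, and the bHR rat was the higher in 22 of the 25 pairs of rats from different lines.

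On the linear scale, in RPM, Mfge8 averaged 131 ± 15.5 (SD, n = 5) in bHR and 110 ± 11.2 (SD, n = 5) in bLR. On the log2 scale the means were 7.02 ± 0.16 and 6.78 ± 0.15, a difference of 0.24 with bHR higher, or 1.18-fold. The SE of the Mfge8 difference was 0.083. For comparison, the median difference over all 16643 genes was -0.0072 log2 and the median of its size was 0.073. As Mfge8 was chosen from results on this contrast, a difference above that median is no support. Without bHR replicate 5 the difference was 0.17 log2, or 1.13-fold, and the other 4 bHR rats had a mean of 6.95 ± 0.044 (SD). With the score of the social test in the model as a covariate, the difference was 0.15 (SE 0.11). In whole tissue, fewer cells that express the gene and less of its RNA per cell cannot be told apart.

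**Figure D1:**
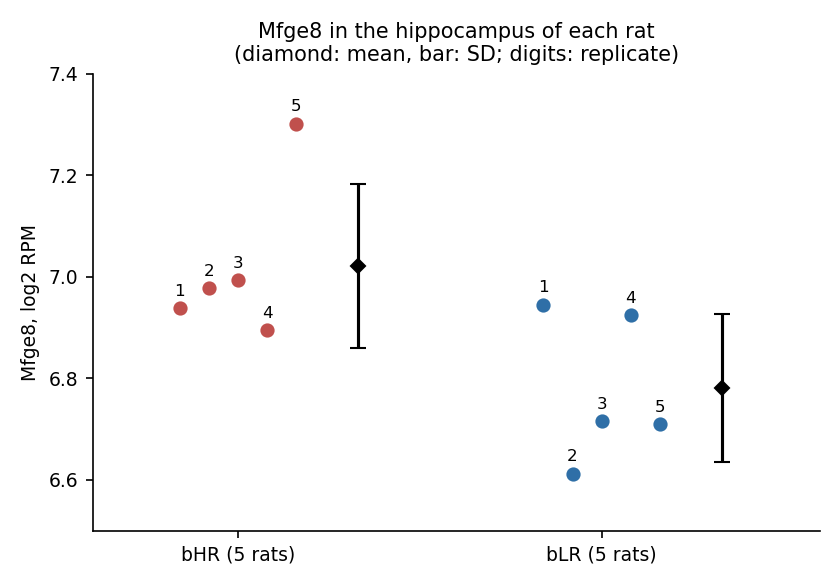
Mfge8 level (log2 RPM, vertical axis from 6.5) in each rat of the bHR and bLR lines, with the mean and SD of each line as a diamond and bar and the replicate number above each point. bHR replicate 5, at 7.30, is the highest of all 10 rats, and bLR replicates 1 and 4 lie among the other bHR rats.

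The transcript was well covered, so counting error was small beside the spread between rats. Whole reads recovered from the deposited values numbered 4541, 3978, 6312, 5450 and 5423 in bHR replicates 1 to 5 and 4596, 4099, 3457, 3552 and 2853 in bLR replicates 1 to 5. Over the 16643 genes kept by the authors' filter, the libraries held 29106105 to 48663164 reads, which leaves out reads of the genes removed. Read sampling alone would give an SD of 0.022 log2, where the SD among rats of the same line was 0.15 for Mfge8 and had a median of 0.12 over all genes. Reads without molecular identifiers are not independent molecules, so these limits cover counting error only.

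Ordered by level, the rats fell from bHR replicate 5 through bHR 3, bHR 2, bLR 1, bHR 1, bLR 4 and bHR 4 to bLR 3, bLR 5 and bLR 2. Of the 9 steps between neighbours in this order, 3 exceeded 1.96 times their counting error. These were the step of 0.31 log2 below bHR replicate 5, the step of 0.18 between bHR replicate 4 and bLR replicate 3, and the step of 0.098 between bLR replicates 5 and 2. The 6 rats from bHR replicate 3 down to bHR replicate 4, 2 of them bLR, spanned 6.99 to 6.90, and no neighbours among them differed beyond counting error. Only neighbours were compared. The ends of this span lay apart by more than the counting SDs of bHR replicates 3 and 4 (0.0182 and 0.0195), so the 6 levels were not all alike.

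The highest Mfge8 level came from a library with many extreme genes. In bHR replicate 5, 229 of 16643 genes (1.38%) stood above the other 4 bHR rats by the same gap criterion that Mfge8 met (the gap to the nearest rat over the range of the line exceeding 0.71), against 61 to 82 genes in each other bHR library. Genes standing low in that way numbered 156 in replicate 5 and 55 to 132 in the others. Its depth was within the range of the line, at 33839361 reads. Set against the other bHR libraries its reads gave a chi-square per gene of 12.2 to 19.3, where pairs among those gave 6.05 to 7.70. Those values lay within the 8.77 to 24.1 of bLR pairs without bLR replicate 5, so they were high for bHR only. The part of this library's other extreme genes in the Mfge8 value was not tested.

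In bLR replicate 5 the authors' effective library size, the divisor behind the deposited values, was 0.933 times the total of its reads, against 1.00 to 1.02 in the other 9 libraries. Its reads also gave a chi-square per gene of 131 to 191 against the other bLR libraries. Pairs among those gave 8.77 to 24.1, and sampling noise would give about 1. The chi-square is a mean over genes, which a small number of genes with many reads can raise. By the gap criterion used for bHR replicate 5, the other bLR libraries had 38 to 100 genes high and 54 to 124 low. This library had 111 high (0.667%) and 91 low (0.547%). Divided by total reads, Mfge8 stood at 97.7 RPM there, which made it the lowest of the 10 rats on that scale, where bLR replicate 2 had 99.2 RPM. With all libraries scaled to total reads the line difference was 0.27 log2, and without bLR replicate 5 it was 0.22. The place of this library in the order of bLR rats thus moved with the scaling, and the direction of the line difference did not.

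The second question was whether Mfge8 followed social behaviour among rats of the same line. The social interaction score, which the labels give with no unit, was 28.33, 16.67, 17.67, 24.33 and 24.0 in bHR replicates 1 to 5. In bLR replicates 1 to 5 it was 12.33, 8.0, 14.33, 24.0 and 7.33. Scores were higher in bHR by 9.0 points on average, so the relation was taken within lines.

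The bHR rats with the highest and lowest scores, replicates 1 and 2, had almost the same Mfge8 level (6.94 and 6.98), and replicates 4 and 5, with scores of 24.33 and 24.0, held the lowest and the highest level of the line. In bLR, replicates 5 and 2 combined the lowest scores with the lowest levels, and replicate 4 combined the highest score with the second highest level. Replicate 1 had the highest level at a middle score. Replicate 3, with the second highest score, had a log2 value of 6.72, within counting error of replicate 5 (a gap of 0.006, SE 0.036).

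In the model with line and score fitted to all 16643 genes, the Mfge8 slope was 0.10 log2 per 10 points (SE 0.077, 95% interval -0.071 to 0.27, limma adjusted p = 0.81). In that comparison 0 genes passed an adjusted p of 0.05 (0.0%), with 1183 at an unadjusted p under 0.05, and limma with voom weights also gave 0. The interval holds slopes in either direction, and at its upper end 10 points of score would go with a larger change in Mfge8 than the mean difference between the lines.

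Correlation of Mfge8 with the score, after each line's mean was subtracted from both, gave a Pearson r of 0.38 over the 10 rats (two-sided exact permutation within lines over 14400 assignments, p = 0.32, and 0.65 after Benjamini-Hochberg adjustment over the 2 measures). Spearman's rho on ranks within lines was 0.05 (exact permutation p = 0.94, adjusted 0.94). Without the 2 rats farthest from the median score, bHR replicate 1 and bLR replicate 5, r was 0.50 (exact permutation p = 0.29). For the same rats rho was 0.10 (exact permutation p = 0.89). Without bLR replicate 4, r was 0.17 (exact permutation p = 0.72), rho turned to -0.13 and the slope was 0.061 per 10 points.

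Taken line by line, the slope was 0.01 log2 per 10 points in bHR and 0.15 in bLR. The difference between these slopes was -0.14 (SE 0.16, 95% interval -0.50 to 0.23, limma adjusted p = 0.86), so it was smaller than its error. In that comparison 1 of 16643 genes passed (0.00601%), and it was not Mfge8. Without bHR replicate 1 the difference was 0.002, with the opposite sign.

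**Figure D2:**
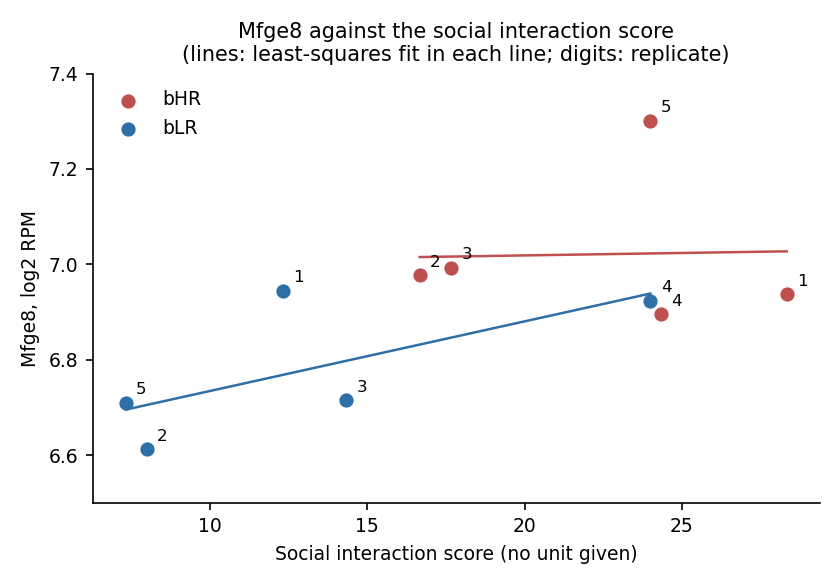
Mfge8 level (log2 RPM) against the social interaction score of each rat, with the least-squares line within bHR and within bLR and the replicate number beside each point. The bHR line is nearly flat at 0.01 log2 per 10 points, and the bLR line, at 0.15, has replicate 4 alone at its right end.

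The direction of the line difference and the width of the score interval were compared over other ways of processing the values. The line difference lay between 0.15 and 0.28 log2 in all 20 alternatives, always with bHR higher. Some alternatives, such as leaving out the intensity trend, change only the error of this difference and could not move it. The slope on the score stayed positive in all 20, and it passed the test in none. Among the alternatives on the same scale, its 95% interval was narrowest without bHR replicate 5 (-0.052 to 0.206). It was widest with the replicate number as a block (-0.168 to 0.452).

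**Figure D3:**
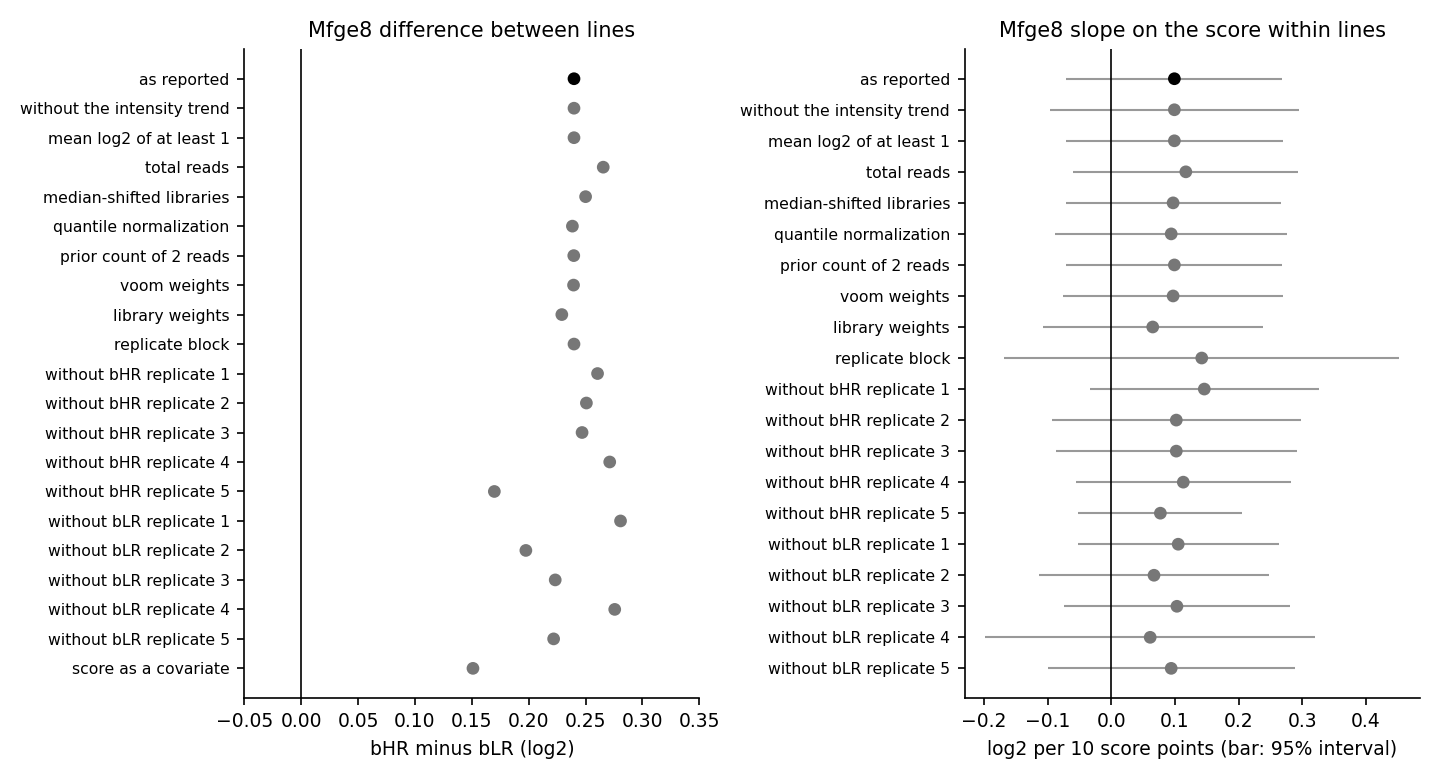
Left, the Mfge8 difference between the lines (log2, bHR minus bLR) as reported (black) and under each alternative (grey). Right, the Mfge8 slope on the score within lines (log2 per 10 points, bars 95% intervals) as reported and under the alternatives on the same scale, where every interval includes 0.

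The third question was which transcripts varied most like Mfge8 among rats of the same line. Likeness was measured as Pearson's r with Mfge8 over the 10 rats after subtracting each line's mean, among 13795 other genes with a mean log2 value of at least 1. It is a description, because the genes were picked for the highest and lowest r of all those compared. The median r was -0.043, 29 genes reached 0.9 or more, and 5 lay at -0.9 or below. Without bHR replicate 5 the 29 genes had a median r of 0.85, and 5 of them were among the 25 genes that then reached 0.9.

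The gene most like Mfge8 was ENSRNOG00000017119, with r = 0.97 and Spearman's rho of 0.85. Its log2 values were 3.85, 3.83, 3.86, 3.84 and 3.95 in bHR replicates 1 to 5 and 3.82, 3.70, 3.74, 3.79 and 3.74 in bLR replicates 1 to 5, from 364 to 719 reads. It was highest in bHR replicate 5, and within bLR in replicates 1 and 4, the same 3 rats that stood highest in Mfge8 relative to their line. But its spread within lines was only 0.047 log2, no more than read sampling alone would give at these read numbers.

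The next, ENSRNOG00000002332, had r = 0.95 and rho of 0.80, from 212 to 441 reads. Its log2 values were 2.66, 2.75, 2.77, 2.74 and 3.53 in bHR replicates 1 to 5 and 3.56, 2.97, 2.85, 3.43 and 3.03 in bLR replicates 1 to 5. It moved over a wider range than Mfge8, with bHR replicate 5 standing 0.80 log2 above the mean of the other bHR rats. Its line means ran the other way from those of Mfge8, with 2.89 ± 0.36 in bHR and 3.17 ± 0.31 in bLR (SD, n = 5), a difference of -0.28 (SE 0.18, limma adjusted p = 0.52) that was within the spread between rats.

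The genes that varied most opposite to Mfge8 were ENSRNOG00000016336 (r = -0.96, rho = -0.75) and ENSRNOG00000025408 (r = -0.95, rho = -0.70). The first had log2 values of 3.28, 3.28, 3.30, 3.37 and 3.15 in bHR replicates 1 to 5 and 3.18, 3.37, 3.27, 3.18 and 3.27 in bLR replicates 1 to 5. It was lowest in bHR replicate 5 and, within bLR, in replicates 1 and 4. Its reads numbered 263 to 487, and its spread within lines of 0.079 log2 was about what read sampling alone would give. The second had log2 values of 1.68, 1.67, 1.81, 1.72 and 1.17 in bHR replicates 1 to 5 and 1.55, 2.11, 1.87, 1.68 and 1.92 in bLR replicates 1 to 5, from 77 to 180 reads, with the same rats low.

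These 4 genes are named by identifier only, and nothing is known here of their function. In the comparison of the lines, which 230 of 16643 genes passed (1.38%), none of the 4 passed the adjustment over all genes. ENSRNOG00000017119 was higher in bHR by 0.11 log2 (SE 0.045, limma adjusted p = 0.30), while the limma adjusted p was 0.90 for ENSRNOG00000016336 and 0.51 for ENSRNOG00000025408. For the score within lines their limma adjusted p was 0.80 to 0.90, in a comparison that no gene of the table passed (0.0%). Without bHR replicate 5 the r with Mfge8 was 0.94 and 0.90 for the pair most like it and -0.93 and -0.90 for the pair most opposite. As the 4 genes were picked over all rats, these values are a description too.

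**Figure D4:**
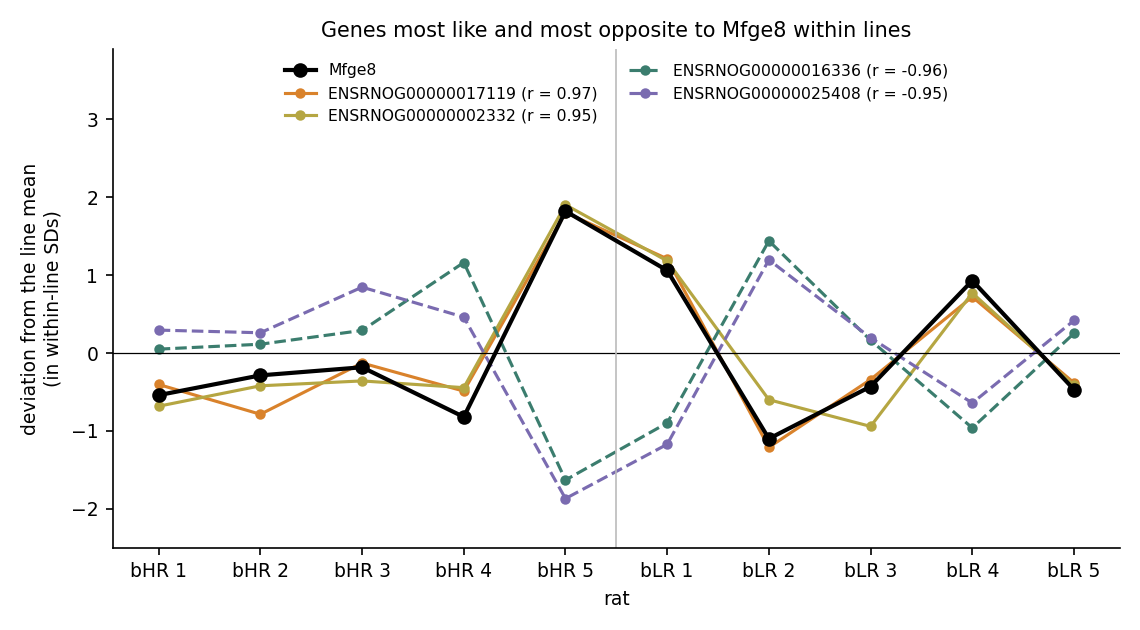
Deviation of Mfge8 and of the 4 genes most like or most opposite to it from the mean of their line, in units of each gene's SD within lines, for each of the 10 rats. Mfge8 and the solid lines are highest in bHR 5 and stand above the line mean in bLR 1 and bLR 4, where the dashed lines fall below it.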

How the data were processed

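Single reads of 50 bases were taken from RNA with an integrity number above 8. Subread placed them on Rnor_6.0, and featureCounts assigned them to genes of Ensembl release 85 (both per the labels' protocols). No strand setting is stated, so overlapping genes may share reads. The authors kept genes with 16 or more counts in at least 5 samples and deposited log2 values from limma voom (R 3.2.2, per the submitters' processing notes).

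Whole reads were recovered from these values, with 100.0% whole within 0.01 reads. No columns were left unused. Over 20 pairs of libraries of the same line, chi-square per gene was at least 6.05 and 0 pairs were identical. That excludes only a library deposited again within a line. Each rat was counted as 1 replicate, and kinship between rats was not checked. Models were fitted to all 16643 genes with limma 3.58.1 in R 4.3.3, with an intensity trend and Benjamini-Hochberg adjustment, and checked on simulated data. Correlations and figures used Python 3.11.15, scipy 1.17.1 and matplotlib 3.10.9. Alternatives covered normalization, weights, low values, the prior count, the replicate block and each library left out.

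Mfge8 and all lists were chosen with earlier results of these data known. The naming rule took every measured bridging protein and MFG-E8 receptor, up to 4 genes per pathway list, and the genes most like and most opposite to Mfge8, 2 identifiers per direction without symbols. Of 16643 identifiers, 0 matched the RefSeq table, so the lists of 148 pathway and marker symbols were not analysed.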

Additional observations from a re-analysis of the deposited data

Results flagged for a closer look

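In 12 groups of 5 values (6 measures within each line), 2 held a single value far from the rest of its group. For independent groups of normal values, chance would give about 1 group in 20. Several of the 6 measures rest on the same reads, so these groups are not independent and the count is a description. In bHR the Mfge8 log2 value of replicate 5 was 7.301, with the nearest bHR rat at 6.993. By the same criterion 229 of 16643 genes (1.38%) stood high in that library. In bLR the ratio of effective size to total reads was 0.933 in replicate 5, where the closest of the other 4 libraries had 1.005.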

How the results depend on the processing

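The Mfge8 line difference of 0.24 log2 kept its direction in 20 of 20 alternatives. It ran from 0.17 to 0.28 without 1 rat and down to 0.15 (SE 0.11) with the score as a covariate. Leaving out the intensity trend, a minimum mean log2 of 1 and the replicate block could not move this estimate. Mfge8 was chosen from this contrast, so the count is a description. The score slope stayed positive and did not pass the test in any alternative, from 0.061 to 0.146 log2 per 10 points without 1 rat and from 0.065 to 0.142 in the other settings. The slope difference between lines ran from -0.203 to 0.002 without 1 rat. Replicate numbers were not taken as pairs, since bHR and bLR libraries of equal number correlated over genes at -0.15 to 0.15 and 1 of 5 bHR libraries matched its own number best. With the replicate block the line difference was 0.24, the slope 0.14 (limma adjusted p = 0.97), the slope difference -0.425 (95% interval -0.838 to -0.012, which leaves out 0, limma adjusted p = 0.99), over 3 times its size without the block, and 108 genes were called between lines. Over all genes, 230 called between lines became 152 without the intensity trend, 46 with the score as a covariate and 108 to 216 without 1 rat. Total reads gave 57.7% of 194 called genes higher in bHR, against 44.3%. The count of 0 genes for the score became 1 without the trend and 1 with the replicate block, and was 0 without any 1 rat. The cause was not tested. Likeness to Mfge8, whose alternatives were chosen after seeing the data, kept its sign for all 4 genes, and with total reads it was -0.67 for ENSRNOG00000016336. These genes were picked for the most extreme r in the same rats, so a kept sign is no support. With 2853 or more Mfge8 reads per library, the counting SD was at most 0.027 log2.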
